A study of Mus musculus with 6 samples.

Results

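Dense clusters of HSF1 peaks were described in mouse striatal cells, outside a dense window of chromosome 13. A peak was counted as clustered when 3 or more other peaks of the same list had their centres within 20 kb of its own centre, unless it started on chromosome 13 between 21 and 24 Mb. The rule was met by 332 of the 8886 peaks in the 4 deposited lists. It reads peak positions, so the number and density of clustered peaks in a list are descriptions and carry no test. STHdhQ7/Q7 cells, with genotype HdhQ7/Q7, derive from wild-type embryonic mice, and STHdhQ111/Q111 cells, with genotype HdhQ111/Q111, derive from knock-in embryonic mice with polyglutamine-expanded huntingtin. The short names Q7 and Q111 are used for them. Both were grown at 33 °C in medium with fetal bovine serum and G418, and were either left at that temperature without treatment or kept at 42 °C for 6 hours. Chromatin was crosslinked with formaldehyde, precipitated with the HSF-1 antibody sc-9144, amplified by PCR and sequenced. Each combination of cells and temperature is 1 library, which leaves no replicate error, and all values describe these libraries only. The 2 control IgG libraries were not analysed here. Peak lists hold no expression values, so the striatal identity of the cells was not checked against markers.

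HSF1 is the main transcription factor of the heat shock response. Under stress it forms trimers that bind heat shock elements, arrays of inverted nGAAn units, and it activates genes for chaperones and other protein quality control factors. Several such elements or several target genes can lie close together on a chromosome, and a broad zone of binding can also be called as several narrow peaks.

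Clustered peaks were found in every library. Among Q7 peaks they numbered 20 of 260 peaks at 33 °C, or 7.69% (95% Wilson interval 5.03 to 11.6), and 231 of 6173 peaks at 42 °C, or 3.74% (3.30 to 4.25). In Q111 cells they numbered 26 of 292 peaks at 33 °C, or 8.90% (6.15 to 12.7), and 55 of 2161 peaks at 42 °C, or 2.55% (1.96 to 3.30). Intervals cover counting error only, and take peaks as independent although clustered peaks are neighbours. Under this rule clustered peaks thus made up a larger share of each 33 °C list, while their number was higher after heat shock. The number at 42 °C was 11.6 times that at 33 °C in Q7 cells, where the whole list was 23.7 times as long. In Q111 cells it was 2.12 times that at 33 °C, where the list was 7.40 times as long. The size of this gap depended on the rule, and in Q111 cells so did its direction. With 5 or more neighbours required, Q7 cells had 6 of 260 peaks at 33 °C and 27 of 6173 at 42 °C, still a larger share at 33 °C. Q111 cells had 0 of 292 and 15 of 2161, so the larger share was then at 42 °C. With peaks joined across gaps of up to 1000 bases, the shares were closer but still larger at 33 °C. They were 5 of 228 and 107 of 5945 peaks in Q7 cells, and 1 of 255 and 6 of 2074 in Q111 cells.

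At 42 °C the Q7 list held 4.20 times as many clustered peaks as the Q111 list, against 2.86 times as many peaks in all. A longer list has more neighbours for each peak. When the Q7 list was trimmed to its 2161 highest-scoring peaks, the length of the Q111 list, it gave 43 clustered peaks in 11 clusters, against 55 in 12 clusters for Q111. Read depth is unknown for all 4 libraries, so a difference between the lines in the number of clustered peaks cannot be told apart from one in depth.

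Runs of clustered peaks with adjacent centres at most 20 kb apart were taken as clusters. There were 5 clusters in Q7 and 7 in Q111 cells at 33 °C, and 65 in Q7 and 12 in Q111 cells at 42 °C. The largest held 6, 5, 8 and 8 clustered peaks, in the same order. Pooling the clustered peaks of all 4 lists in the same way gave 68 loci on 17 chromosomes. The gene table at hand is on GRCm38.p6 and the peaks are on mm9, so genes were not assigned and no sequence is shown. Loci are identified by their mm9 position, counted from 1, and those described singly carry a letter from A to N in genome order.

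Of the 68 loci, 4 met the density rule in all 4 libraries, 2 in 3 libraries, 5 in 2 libraries and 57 in 1 library. The last group was made up of 56 loci that met it in Q7 cells at 42 °C alone and 1 that met it in Q111 cells at 42 °C alone. Peaks below the density rule were nevertheless common at the same places. When every peak inside a locus was counted, clustered or not, 12 loci held peaks of all 4 libraries, 4 of 3 libraries, 38 of 2 libraries and 14 of 1 library. All 68 loci held a Q7 peak at 42 °C and 54 held a Q111 peak at 42 °C. At 33 °C, 13 held a Q7 peak and 15 a Q111 peak.

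**Figure D1:**
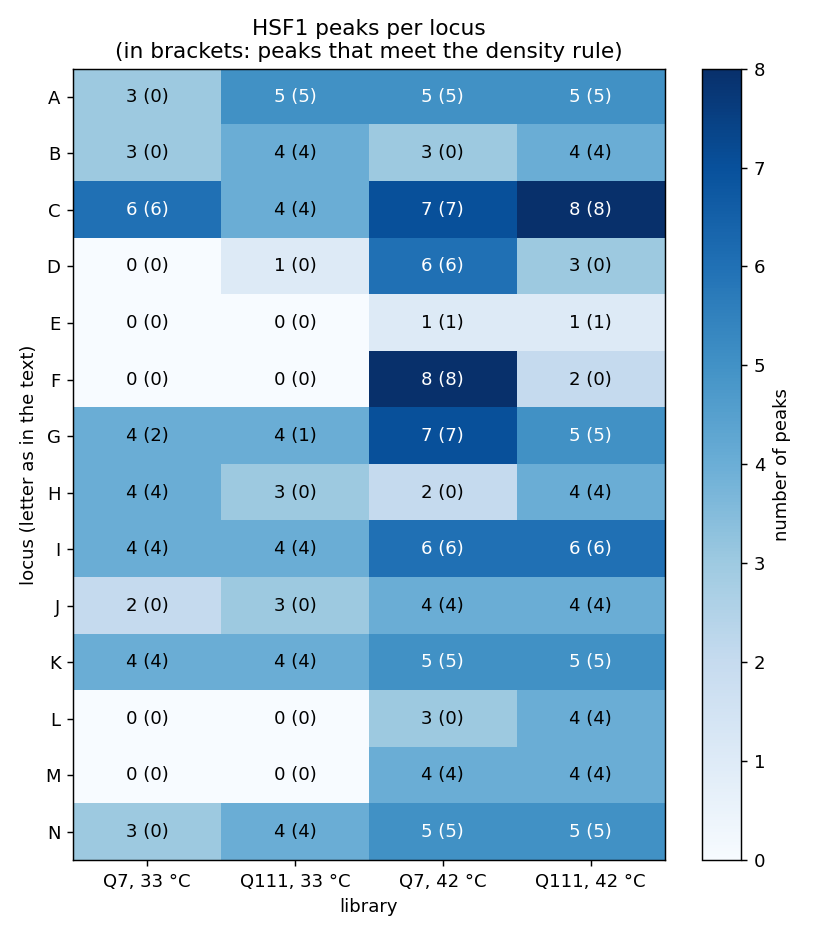
Number of peaks inside each lettered locus (rows) in each library (columns), with the number that meet the density rule in brackets and colour for the number of peaks. Loci C, G, I and K meet the rule in all 4 libraries, whereas D and F meet it only in Q7 cells at 42 °C.

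The loci dense in all 4 libraries were C, G, I and K. Locus C lay on chromosome 5 from 125869307 to 125890192. It held 6 Q7 and 4 Q111 peaks at 33 °C, and 7 Q7 and 8 Q111 peaks at 42 °C, the most of any locus in the Q111 list. Merging overlapping peaks of the 4 lists gave 6 sites there, of which 4 were occupied in every library. The other 2, from 125869307 to 125871190 and from 125871827 to 125872475, were occupied in both lines at 42 °C and in neither at 33 °C. The second of these had the highest score given to a clustered peak of the Q7 list at 42 °C, 3182. Scores are the peak caller's own measure of how far a peak stands above background, and are compared here only within a list. The neighbouring site, from 125872961 to 125874491, scored highest in this locus in the other 3 libraries, with 464 in Q7 and 1159 in Q111 cells at 33 °C and 3100 in Q111 cells at 42 °C. That site also scored 3100 in Q7 cells at 42 °C, a value at which 73 Q7 and 12 Q111 peaks are tied. Whether 3100 is a limit of the score is not known, so the order of 3182 and 3100 is not read as a difference between the sites.

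Locus G extended over 35.7 kb of chromosome 11, from 48631768 to 48667458, and was the longest of the loci that were dense in more than 1 library. It held 4 peaks of each line at 33 °C, and 7 Q7 and 5 Q111 peaks at 42 °C. The same 4 sites were occupied in every library. At 33 °C the highest score in both lines was at the site from 48647032 to 48648310, with 658 in Q7 and 717 in Q111 cells. This site was also the highest in Q111 cells at 42 °C, with 1497, whereas in Q7 cells at 42 °C the site from 48631711 to 48632499 scored 913 and this one 877. The 2 remaining sites appeared at 42 °C, 1 in both lines with scores of 137 and 112 and 1 in Q7 cells alone with a score of 104.

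Locus I, on chromosome 11 from 68923647 to 68939045, had 4 peaks of each line at 33 °C and 6 of each line at 42 °C. Of its 5 sites, 3 were occupied in all 4 libraries. Only the Q7 library at 33 °C had no peak at the site from 68923647 to 68924826, and the one from 68936753 to 68937325 was occupied in both lines at 42 °C only. The site from 68937367 to 68938291 had the highest score in each of the 4 libraries, with 219 in Q7 and 582 in Q111 cells at 33 °C and 955 in Q7 and 1050 in Q111 cells at 42 °C.

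Locus K was the most compact of these 4, with 9.93 kb on chromosome 17 from 23677641 to 23687570. It held 4 peaks of each line at 33 °C and 5 of each line at 42 °C, without any site being split into several peaks. The additional site at 42 °C, from 23677641 to 23678194, scored 299 in Q7 and 132 in Q111 cells. The other 4 sites were occupied throughout and differed in which was highest. At 33 °C this was the last site, from 23686912, with scores of 450 in Q7 and 483 in Q111 cells. At 42 °C it was the site from 23685453 in Q7 cells, with 1138, and the site from 23684048 in Q111 cells, with 904.

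**Figure D2:**
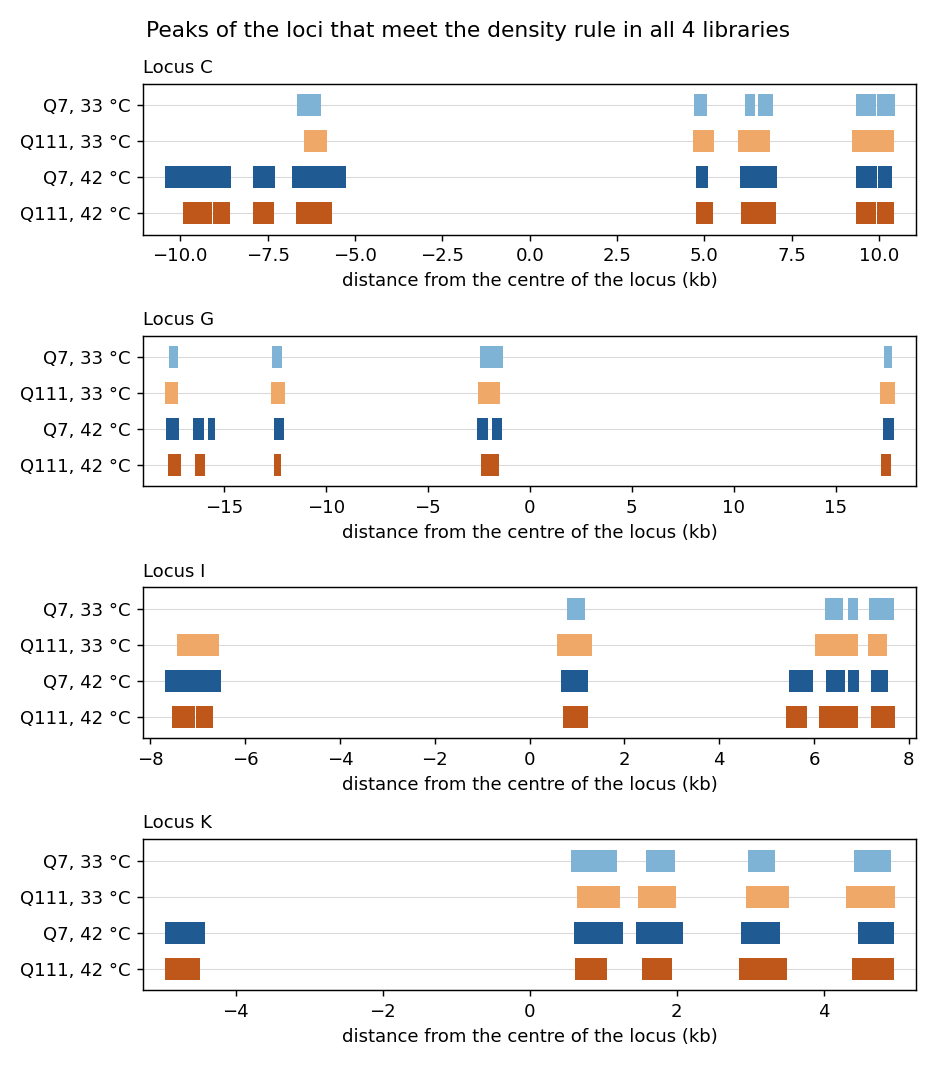
Positions of peaks in loci C, G, I and K, 1 row per library, as distance in kb from the centre of the locus; each bar is 1 peak, drawn at its width. Most bars stand above each other in all 4 libraries. The positions without a bar of either line at 33 °C lie at the left of C and K and beside an occupied site in G and I. The site at the left of I lacks a bar only in the Q7 row at 33 °C.

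Loci A and N met the rule in every library except Q7 at 33 °C. Locus A lay on chromosome 1 from 172963709 to 172975388 and held 5 peaks in each of these 3 libraries. It held 3 Q7 peaks at 33 °C, and the site from 172974792 to 172975388 lacked one. Locus N lay on chromosome 19 from 12076592 to 12087101. It held 3 Q7 and 4 Q111 peaks at 33 °C and 5 of each line at 42 °C, and its site from 12076592 to 12077131 again lacked only a Q7 peak at 33 °C. In both lines the highest site of locus N at 33 °C was the one from 12085230 to 12087105. At 42 °C the highest was the one from 12080227 to 12081225, with scores of 2472 in Q7 and 1998 in Q111 cells. Within the 33 °C lists this site was 2nd of 3 in Q7 cells, with a score of 116, and 2nd of 4 in Q111 cells, with 274.

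Loci B, E, H, J and M met the rule in 2 libraries each. Locus B, on chromosome 3 from 96301430 to 96305710, was dense in Q111 cells at both temperatures, with 4 peaks each time. In Q7 cells it held 3 peaks at each temperature, so it fell short of the rule by 1 peak. All 3 of its sites were occupied in both lines at 42 °C, and 1 of them, from 96301430 to 96302037, lacked a Q7 peak at 33 °C. Locus J, on chromosome 14 from 51702235 to 51710688, was dense at 42 °C in both lines with 4 peaks each, and held 2 Q7 and 3 Q111 peaks at 33 °C. Locus M, on chromosome 19 from 5841405 to 5848779, was dense at 42 °C in both lines and empty at 33 °C. Its 4 sites were all occupied in both lines, with the highest score at the site from 5846523 to 5847469, 1840 in Q7 and 366 in Q111 cells. Locus E was a single peak on chromosome 7 from 135685598 to 135686185 that met the rule in both lines at 42 °C through neighbours that did not meet it themselves. It scored 185 in Q7 and 115 in Q111 cells.

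Locus H, on chromosome 11 from 68850276 to 68855559, met the rule in Q7 cells at 33 °C and in Q111 cells at 42 °C. The other pair of libraries did not, although the locus is occupied in all of them. It held 4 Q7 and 3 Q111 peaks at 33 °C, and 2 Q7 and 4 Q111 peaks at 42 °C. Overlapping peaks merged into 2 sites, from 68850162 to 68851622 and from 68853575 to 68855559, and both were occupied in all 4 libraries. In Q7 cells at 42 °C each site was 1 peak, while in Q7 cells at 33 °C each was split into 2 peaks. Membership here therefore moved with how the sites were divided into peaks. Its peak from 68853632 to 68854977 ranked 1 in the Q111 list at 33 °C, with a score of 1508.

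Such splitting was seen at few sites over all loci, but mostly in loci dense in more than 1 library. Over all 68 loci there were 235 sites, and 13 of them held more than 1 peak of the same list. These included 3 of the 6 sites of locus C, both sites of H and 2 of the 5 sites of I. Loci A, B, G and N had 1 such site each, among 4, 3, 6 and 4 sites. Adjacent clustered peaks of a run had a median distance between centres of 1368 bases in Q7 and 1625 bases in Q111 cells at 33 °C, and of 3708 bases in Q7 and 1457 bases in Q111 cells at 42 °C. The distance was under 1000 bases in 7 of 15, 4 of 19, 26 of 166 and 14 of 43 cases, in the same order. As an alternative chosen after the data were seen, peaks with gaps of up to 1000 bases were joined before neighbours were counted, whether they belonged to 1 site or to separate sites. This left 5 clustered peaks in Q7 and 1 in Q111 cells at 33 °C, and 107 in Q7 and 6 in Q111 cells at 42 °C. How much of this came from split sites and how much from separate sites close together was not tested.

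Most loci were dense in heat-shocked Q7 cells alone. These 56 loci held 187 Q7 peaks at 42 °C, and 64 Q111 peaks at 42 °C lay inside them. A Q111 peak was present in 42 of the 56, as 1 peak in 26 loci, 2 in 10 and 3 in 6. The 14 loci without any Q111 peak were short, with a median length of 1.44 kb, and their highest Q7 score was between 96.2 and 565 with a median of 172. None of the 14 held a peak among the highest-scoring 10% of the Q7 list. In the 42 loci with a Q111 peak the highest Q7 score had a median of 988, and 22 held a peak among the highest 10%. A locus ends at its outermost clustered peaks, so a short one has less room for a Q111 peak. The highest score was also taken from fewer Q7 peaks in the 14 loci, a median of 2 against 4 in the 42. The differences in length and score are thus in part set by how loci were drawn.

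Where these loci held several Q7 peaks, those found again in the Q111 list were set against their Q7 scores. Of 48 such loci with 2 or more clustered peaks, the highest-scoring Q7 peak was overlapped by a Q111 peak in 35 and the lowest-scoring Q7 peak in 2. In 31 of the 40 that held a Q111 peak, the highest-scoring peaks of both lists overlapped each other. Over the whole Q7 list at 42 °C, divided into 3 score bands of equal size, the share overlapped also differed with the score. It was 65.2% in the highest and 4.18% in the lowest band, so this is not particular to these loci. They were also chosen for not being dense in the Q111 list. Only 7 of the 56 loci held any peak at 33 °C.

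Locus F, on chromosome 10 from 59366679 to 59414902, was the longest of all 68 loci, with 48.2 kb, and had the most Q7 peaks at 42 °C, 8 at 8 separate sites. None of the 8 sites was occupied at 33 °C. Only 2 were occupied in Q111 cells at 42 °C, and they were the 2 with the highest Q7 scores. These were the site from 59411329 to 59412573, with scores of 3100 in Q7 and 569 in Q111 cells, and the site from 59396821 to 59397394, with 1230 and 389. The Q7 scores of the other 6 sites were between 105 and 470.

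Locus D, on chromosome 5 from 136355169 to 136367214, held 6 Q7 and 3 Q111 peaks at 42 °C. The 3 Q111 peaks lay at the 3 Q7 sites with the highest scores, of 3100, 3100 and 1702, and the 3 Q7 peaks without a counterpart scored 145, 158 and 116. A single peak was called at 33 °C, in Q111 cells, with a score of 102.5. In both F and D the sites missing from the Q111 list were thus those with the lowest Q7 scores. Low-scoring peaks of the whole Q7 list were also rarely found again, so this is not particular to F and D.

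The single locus that was dense only in Q111 cells was named after its values were seen. Locus L lay on chromosome 17 from 35095958 to 35109683 and held 4 Q111 and 3 Q7 peaks at 42 °C and none at 33 °C. Its outer sites, from 35095941 to 35097169 and from 35108872 to 35109780, were occupied in both lines. They were the highest of the locus in each list, with 3100 for both in the Q7 list and 1133 and 1119 in the Q111 list. The sites from 35104954 to 35105870 and from 35106292 to 35106661 were called in Q111 cells alone, with scores of 255 and 113. The site from 35098107 to 35098577 was called in Q7 cells alone, with a score of 98.4.

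Presence at 33 °C separated the loci into 16 with and 52 without a peak of either line. Both lines had a 33 °C peak in 12 of the 16. The 4 others were picked out by this count. They were the locus on chromosome 14 from 25987164 to 26007618, with a Q7 peak alone, and 3 with a Q111 peak alone. These 3 were locus D, a locus of chromosome 2 (166167473 to 166186675) and one of chromosome 19 (5794700 to 5812671). In the 16 loci the number of peaks was higher at 42 °C than at 33 °C in 14 for Q7 and in 12 for Q111 cells. In Q7 cells it was equal in locus B and lower in locus H. In Q111 cells it was equal in 4, namely A, B, the locus that starts at 173031798 of chromosome 1 and that of chromosome 2, and lower in none of the 16. However, 65 of the 68 loci were chosen by density in the Q7 list at 42 °C, and B and H were not among them. The 42 °C lists are also longer. Higher numbers at 42 °C thus follow in part from the choice of loci, and are no result about heat shock.

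The peaks of other libraries were not used to choose the clustered peaks of a list, and showed how often these were found again. In the Q7 list at 42 °C, 106 of 231 clustered peaks, or 45.9% (39.6 to 52.3), were overlapped by at least 1 base by a Q111 peak at 42 °C. The same share over all peaks of the list was 28.7%. Conversely, 53 of 55 clustered Q111 peaks at 42 °C, or 96.4% (87.7 to 99.0), were overlapped by a Q7 peak, against 82.4% of all peaks of that list. The 2 exceptions were the Q111 sites of locus L given above. Peaks are not replicates and no test was made.

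As a ratio to the share of the whole list, overlap with 33 °C peaks stood further above it. In percentage points this held for the Q111 list only. Of the clustered Q7 peaks at 42 °C, 34 or 14.7% (10.7 to 19.9) were overlapped by a Q7 peak at 33 °C, against 3.86% of all peaks, and 40 or 17.3% (13.0 to 22.7) by a Q111 peak at 33 °C, against 4.05%. Of the 55 clustered Q111 peaks at 42 °C, 39 or 70.9% (57.9 to 81.2) were overlapped by a Q111 peak at 33 °C, against 12.1% of all, and 31 or 56.4% (43.3 to 68.6) by a Q7 peak at 33 °C, against 10.2%. The Q7 share depended on the rule. With 5 or more neighbours required, 48.1% of clustered Q7 and 66.7% of clustered Q111 peaks at 42 °C were overlapped by a 33 °C peak of their own line. With a distance of 10 kb the Q7 share was 31.8%, with a minimum score of 150 it was 22.9%, and with peaks joined across gaps of up to 1000 bases it was 5.61%. The Q7 list is also 2.86 times as long as the Q111 list, so the shares of the lines are given side by side without a comparison. Clustered peaks also scored above all peaks of their list by the median. Whether the score accounts for the gaps between clustered and all peaks was not tested.

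All 20 clustered Q7 peaks at 33 °C were overlapped by a peak of each other library. This allows a share as low as 83.9%. Over all Q7 peaks at 33 °C the shares were 70.8% for Q111 at 33 °C, 94.2% for Q7 at 42 °C and 88.1% for Q111 at 42 °C. All 26 clustered Q111 peaks at 33 °C were overlapped at 42 °C by a peak of each line, with a lower bound of 87.1%, against 85.3% of all peaks for Q7 and 88.7% for Q111. A Q7 peak at 33 °C overlapped 22 of the 26, or 84.6% (66.5 to 93.8), against 60.6% of all. The 4 without one lay at the sites of loci A, I and N already given and at the site of locus B from 96301430. For the 42 °C libraries these shares were near that of the whole list, and so they are no result about clustered peaks.

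**Figure D3:**
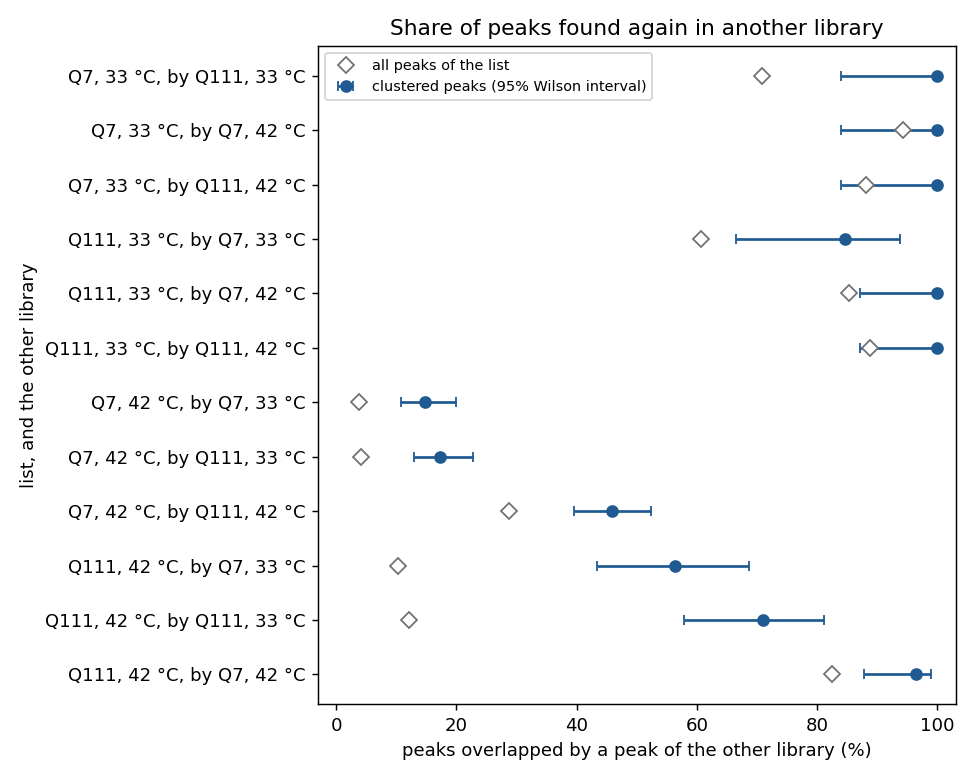
Share of the clustered peaks of each list (filled circles, with 95% Wilson intervals for counting error) and of all its peaks (open diamonds) that were overlapped by a peak of another library, in percent. The widest gaps are those of the Q111 list at 42 °C with the 33 °C libraries, at 70.9% against 12.1% and 56.4% against 10.2%.

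Shares differed with the score, which was therefore set beside them. The Q7 list at 42 °C was divided into 3 bands of equal size. In the lowest band, with scores up to 134, 3 of 58 clustered peaks or 5.17% (1.77 to 14.1) were overlapped by a Q111 peak at 42 °C, and 4.18% of all peaks were. In the middle band the shares were 25.0% (16.0 to 36.8) of 64 clustered peaks and 16.8% of all. In the highest band, from a score of 281, they were 79.8% (71.3 to 86.3) of 109 clustered peaks and 65.2% of all. The interval excluded the share of all peaks in the highest band only. In the Q111 list at 42 °C, 39 of the 55 clustered peaks were in the highest band, and all 39 were overlapped by a Q7 peak at 42 °C, with a lower bound of 91.0%, against 97.8% of all peaks. In its lower bands 4 of 5 and 10 of 11 clustered peaks were overlapped, against 63.6% and 85.8% of all, and each interval included the share of all peaks. Within bands of score a difference of the clustered Q111 peaks from their list was thus not detectable at these numbers. In the Q7 list at 42 °C, 109 of the 231 clustered peaks were in the highest band, which holds 2058 of all 6173 peaks.

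A larger share of clustered Q7 peaks at 42 °C was found again at loci with a 33 °C peak. At the 16 such loci, 54 of 70 clustered Q7 peaks, or 77.1% (66.0 to 85.4), were overlapped by a Q111 peak at 42 °C. At the 52 loci without one, 52 of 161 were, or 32.3% (25.6 to 39.9), close to the 28.7% of the whole list. Median scores within the Q7 list were 420 and 206, so these 2 sets also differed in score. The grouping itself also used Q111 peaks. Of the 16 loci 15 held a Q111 peak at 33 °C, and 88.7% of all Q111 peaks at 33 °C were overlapped by a Q111 peak at 42 °C. Whether the score or this grouping accounts for the difference was not tested.

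Clustered peaks stood above the middle of their own lists by score. The median score was 194 for clustered and 157 for all peaks in Q7 cells at 33 °C, and 284 and 208 in Q111 cells at 33 °C. At 42 °C it was 265 and 181 in Q7 and 474 and 207 in Q111 cells. Among the highest-scoring 10% of each list were 4 of 20 clustered peaks in Q7 and 5 of 26 in Q111 cells at 33 °C, and 39 of 231 in Q7 and 18 of 55 in Q111 cells at 42 °C. In the Q7 list at 42 °C, 88 of the 231, or 38.1%, nevertheless lay in its lower-scoring part, below the median rank. In the Q111 list at 42 °C only 7 of 55, or 12.7%, did. Scores and positions come from the same lists as the rule, so these values are descriptions.

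**Figure D4:**
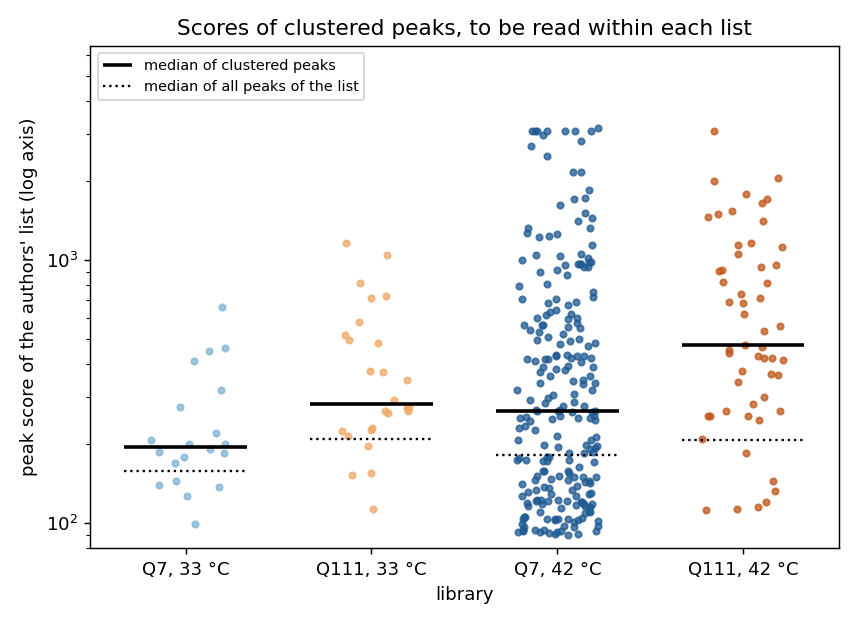
Score of every clustered peak by library on a log axis, with the median of clustered peaks (solid line) and of all peaks of the list (dotted line); horizontal scatter within a library has no meaning. The solid line is above the dotted one in each of the 4 lists, and the points of Q7 at 42 °C reach from 90.1 to 3182.

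The widths of clustered peaks were above those of the whole list in 3 of 4 lists by their medians. The median width of clustered peaks was 412.5 bases in Q7 cells at 33 °C, against 420.5 for all peaks, and 596.5 against 549 in Q111 cells at 33 °C. At 42 °C it was 552 against 495 bases in Q7 and 536 against 444 bases in Q111 cells. The widest clustered peak measured 1884 bases, in Q7 cells at 42 °C.

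The threshold of the rule cut through a continuous range. Exactly 3 neighbours were counted for 159 and exactly 2 for 395 peaks of the Q7 list at 42 °C outside the chromosome 13 window. The corresponding numbers were 24 and 72 in Q111 cells at 42 °C, 14 and 22 in Q7 cells at 33 °C, and 21 and 21 in Q111 cells at 33 °C. In the Q7 list at 42 °C, the last peak inside the threshold lay on chromosome 19 from 5744145 to 5744745, with the peak that decides its membership, the one 3rd nearest to it, 19876 bases away and a score of 126. The first outside lay on chromosome 11 from 8365859 to 8367049, where that distance was 20269.5 bases and a score of 480. In the Q111 list at 42 °C these distances were 19383 bases, for a peak on chromosome 11 from 48666822, and 20775.5 bases, for one on chromosome 10 from 80136896. At 33 °C they were 19418 and 21221 bases in Q7 cells and 19526.5 and 20869 bases in Q111 cells, in each case on chromosome 11.

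The megabase of chromosome 11 from 68 to 69 Mb holds loci H and I, and was dense in all 4 libraries. It held 10 Q7 and 8 Q111 peaks at 33 °C, of which 8 and 4 were clustered, and 13 Q7 and 11 Q111 peaks at 42 °C, of which 6 and 10 were clustered. Between the loci lay a further place that was occupied in every library but stayed outside the rule. In Q111 cells it was a single peak, from 68875478 to 68876879 at 33 °C with a score of 1429 and from 68875715 to 68877354 at 42 °C with a score of 2390. The second was the highest score of the window in that library. In Q7 cells it was a pair of peaks with scores of 306 and 329 at 33 °C and 1 peak with a score of 2004 at 42 °C.

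A stretch of chromosome 6 between 128212036 and 128793703, with similar numbers of peaks, held no clustered peak in any library. It contained 9 peaks of each line at 33 °C, and 12 Q7 and 11 Q111 peaks at 42 °C. No peak there had more than 2 others within 20 kb, and the smallest distance to the peak 3rd nearest was 34.7 kb in every library. Most of the peaks fell into 3 groups of 2 or 3 peaks at nearly equal distances. The groups began in Q7 cells at 42 °C at 128710034, 128748764 and 128788304, and were 4.55, 4.68 and 5.40 kb long. From the last peak of a group to the last peak of the next the distance was 38.8 and 40.3 kb in Q7 and 38.9 and 40.3 kb in Q111 cells at 42 °C, and 38.7 and 40.3 kb in Q7 and 38.8 and 40.2 kb in Q111 cells at 33 °C.

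The inner order of the groups was alike too. In Q7 cells at 42 °C each group had a pair of peaks 0.552, 0.586 and 0.624 kb apart, followed by another peak 3.40, 3.55 and 4.23 kb further on. The Q111 peaks at 42 °C gave 0.649, 0.646 and 0.630 kb for the pair and 3.27, 3.54 and 4.24 kb for the distance to the last peak. At 33 °C the last group was called as 2 peaks in both lines, 4.61 kb apart in Q7 and 4.47 kb apart in Q111 cells. Scores in the 3 groups were between 325 and 679 in Q7 and between 128.6 and 518 in Q111 cells at 42 °C, and between 96.8 and 351 in Q7 and between 117 and 424 in Q111 cells at 33 °C.

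**Figure D5:**
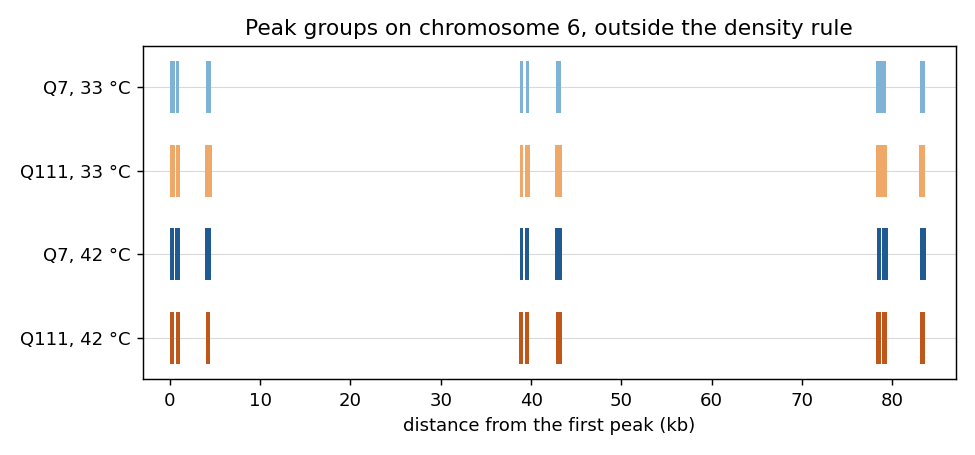
Peaks of the 3 groups in the chromosome 6 window, 1 row per library, as distance in kb from the first peak; each bar is 1 peak, drawn at its width. The same 3 groups stand at the same places in all 4 libraries, with 38.7 to 40.3 kb between the last peaks of neighbouring groups.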

How the data were processed

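HSF1 ChIP-seq was deposited as 1 peak list for each of 4 libraries. Per the submitters' processing notes, MACS 1.4.0rc2 and mm9 were used. Which aligner, background library and read filters were used, and the depth, is not given in the sources used here, so the precision that depth gives is unknown. The score deposited by the authors for each peak was read as -10 log10 of its p-value, which is inferred from usual MACS output. Starts counted from 0 were converted to positions counted from 1. Groups come from the sample titles. Neighbours were counted within each list, including peaks of the chromosome 13 window. A peak was placed in a locus when its centre lay inside it. Overlaps needed at least 1 base. Python 3.11.15 was used with pandas 2.3.3, numpy 2.4.6, matplotlib 3.10.9 and scipy 1.17.1, and the code was tested on simulated data with planted clusters.

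Clustered peaks and the alternatives were chosen with earlier results of these data known. Loci named were those dense in 2 or more lists, the 5 with most clustered peaks in each 42 °C list with ties kept, and those in the windows of chromosomes 11 and 6 described in the results. The 3 highest-scoring peaks of a list could be named in each, and further peaks, and locus L, were named after their values were seen. Gene annotation and heat shock element counts had been planned. They need mm9 sequence and genes and were not run.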

Additional observations from a re-analysis of the deposited data

Results flagged for a closer look

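At locus H, on chromosome 11 from 68850276 to 68855559, the number of peaks moved in opposite directions with heat shock in the 2 lines. The difference between 42 °C and 33 °C was -2 peaks in Q7 cells, from 4 to 2, and 1 peak in Q111 cells, from 3 to 4. The difference between the lines was not tested, since each value is 1 library. In each of the 4 libraries these peaks covered the same 2 sites.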

How the results depend on the processing

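Of 72 planned repeats of the counts and shares, 47 stayed within 1.5 times the reported count or within the interval of the reported share, and 25 moved. Autosomes alone, an overlap of 50% of the shorter peak and a gap of up to 500 bases moved none. Requiring 5 or more neighbours left 6, 0, 27 and 15 clustered peaks in 1, 0, 6 and 3 clusters for Q7 and Q111 at 33 °C and Q7 and Q111 at 42 °C. Shares found again were then 85.2% for Q7 by Q111 and 100% for Q111 by Q7 at 42 °C, and 48.1% for Q7 at 42 °C by Q7 at 33 °C, and none could be given for Q111 at 33 °C. A distance of 10 kb left 85 peaks in 28 clusters for Q7 at 42 °C, with 69.4% found again in Q111 at 42 °C and 31.8% in Q7 at 33 °C. A minimum score of 150 left 8 peaks in 2 clusters for Q7 at 33 °C and 83 in 24 for Q7 at 42 °C. The shares were then 66.3% and 22.9% for Q7 at 42 °C by Q111 at 42 °C and by Q7 at 33 °C, 85.0% for Q111 at 42 °C by Q111 at 33 °C, and 59.1% for Q111 by Q7 at 33 °C. Trimming the Q7 list at 42 °C left 43 peaks in 11 clusters. Joining peaks across gaps of up to 1000 bases, chosen after the data were seen, left 5, 1, 107 and 6 peaks in 2, 1, 36 and 2 clusters, in the order given first. Shares were then 37.4% for Q7 by Q111 and 100% for Q111 by Q7 at 42 °C, 5.61% for Q7 at 42 °C by Q7 at 33 °C, 100% for Q111 at 42 °C by Q111 at 33 °C and 100% for Q111 by Q7 at 33 °C. Stricter rules leave fewer peaks by construction. The cause of the moved shares was not tested. No paired analysis was possible because each group is 1 library and no test was made.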

Other observations

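Clustered peaks were found on 17 chromosomes. Chromosomes 16, 18 and X held none in any library, although the Q7 list at 42 °C had 214, 112 and 82 peaks there. Over the whole Q7 list at 42 °C 3.74% of peaks were clustered. By share, chromosome 19 was highest with 15 of 205 peaks, or 7.32%, followed by chromosome 12 with 14 of 205, or 6.83%, and chromosome 10 with 24 of 399, or 6.02%. In the Q111 list at 42 °C, where 2.55% of all peaks were clustered, chromosome 19 held 9 of 65, or 13.8%, chromosome 17 held 9 of 93, or 9.68%, and chromosome 11 held 15 of 174, or 8.62%. These counts rest on few loci. Pooled over the 4 lists there were 4 on chromosome 19, 4 on chromosome 17 and 6 on chromosome 11. The clustered Q111 peaks at 42 °C lay in fewer, namely M and N on chromosome 19, K and L on chromosome 17, and G, H and I on chromosome 11. No test was made.

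Between the lines, offsets between overlapping peaks were larger for clustered peaks than over all overlapping pairs, by their medians. Centres of clustered Q7 peaks at 42 °C and the Q111 peaks at 42 °C that overlapped them were a median of 53.8 bases apart over 106 pairs, against 46 bases over all 1773 pairs. The Q7 peak was the wider one in 83.0% of the clustered pairs and in 83.0% of all. At 33 °C the median offset between the lines was 107 bases over 20 clustered pairs and 57.8 bases over all 184. The Q7 peak was narrower by a median of 356.5 bases in the clustered pairs and by 144.5 bases in all. At some sites of loci C, H and I, 2 Q7 peaks at 33 °C lay over 1 Q111 peak, which was then paired with both. Such pairs can raise both the offset and the width gap. How far they account for the values of clustered pairs was not tested. Between the temperatures the direction differed by line. For Q7 peaks at 33 °C and 42 °C the median offset was smaller for clustered peaks, with 37.8 bases over 20 pairs against 56.5 over all 245. For Q111 peaks it was larger, with 78.2 bases over 26 pairs against 60.5 over all 259.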
